A study of Mus musculus with 18 samples.

Results

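The replication-dependent histone genes are the protein-coding genes of the mouse Hist1, Hist2, Hist3 and Hist4 clusters, and they were taken by name from the RefSeq annotation of build GRCm38.p6. The rule found 67 of the 24963 genes with a matched transcript, after 3 pseudogenes of the clusters were left out. Hist1 on chromosome 13 held 54 of them, Hist2 on chromosome 3 held 10, Hist3 on chromosome 11 held 2 and Hist4 on chromosome 6 held 1. By type there were 6 linker histone H1 genes and, among the core histones, 18 H2A, 18 H2B, 12 H3 and 13 H4 genes. The older Hist names are used here, with the newer symbol at the first mention of a member described in detail.

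Granulosa cells, which surround the oocyte in the ovarian follicle and feed it, came from mice 21 to 27 days old that received 5 IU equine chorionic gonadotropin (eCG) and, 46 h later, 5 IU human chorionic gonadotropin (hCG), and were collected 8 h after hCG. Total RNA depleted of ribosomal RNA was sequenced in 18 libraries, each a pool of 3 mice. There were 3 strains, each with 3 knockout (KO) and 3 wildtype (WT) libraries. PRKO KO mice (Pgr tm1Bwo) lacked both isoforms of the progesterone receptor PGR, PRAKO KO mice (Pgr tm1Omc) lacked PGR-A, PRBKO KO mice (Pgr tm2Omc) lacked PGR-B, and the WT mice of each strain had received the same hormones. All 10 granulosa markers listed, among them Foxl2, Cyp19a1 and Inha, were above 0 in every group. The same held for every erythroid, leukocyte, endothelial, theca and oocyte marker listed, so being above 0 does not measure purity. The granulosa markers summed to between 2208 and 3832 TPM in a library, and 7 oocyte markers to between 188 and 417 TPM. TPM (transcripts per 1000000) is an abundance per length of transcript, scaled to the same sum in each library, and keeps no read depth. Pgr RNA fell in no KO group. It had 1.93, 1.49 and 2.67 TPM in PRKO KO and 2.01, 2.09 and 1.73 TPM in PRKO WT, 8.36, 11.2 and 12.4 TPM in PRAKO KO and 0.829 to 1.10 TPM in PRAKO WT, and 2.62, 4.88 and 3.10 TPM in PRBKO KO and 1.49, 6.24 and 1.42 TPM in PRBKO WT. The knockouts are defined by loss of protein, so these levels do not check the labels.

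Core histones H2A, H2B, H3 and H4 form the protein spool on which DNA is wound, and H1 binds the linker between spools. Their clustered genes are switched on at the start of S phase, when new DNA must be packaged, through the coactivator NPAT and its partner CASP8AP2 (FLASH). Most of their messages end in a short stem-loop in place of a poly(A) tail. The stem-loop binding protein SLBP holds it through 3′ end cleavage, translation and decay, and the messages are lost when replication stops. After the ovulatory hormone surge granulosa cells are known to leave the cell cycle as they turn into luteal cells. Because the libraries were made from total RNA and not from poly(A) RNA, messages without a tail could be measured.

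The stem-loop is shown because it is the feature that sets these messages apart. It was searched for in GENCODE transcripts of build GRCm38 as 16 bases that start with GG, carry T at positions 6 to 9 and have a first run of 6 bases that pairs with the last 6. It was found in 44 of the 67 members, and in 57 of 55450 annotated genes (0.10%). In the 23 members without a match these letters were not in the transcript model, and several models hold coding sequence only. Written 5′ to 3′ as DNA, with the 4 loop bases in capitals, the 6 forms were as follows, each beside a member that carries it.
Hist1h1e: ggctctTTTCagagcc
Hist1h2bb: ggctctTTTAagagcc
Hist2h2ac: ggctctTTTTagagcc
Hist1h4c: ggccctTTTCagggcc
Hist2h4: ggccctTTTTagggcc
Hist1h4b: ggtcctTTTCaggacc
The first form stood in 26 members of types H1, H2A, H2B and H3. The form of Hist1h4c stood in 7 members, all of type H4, and that of Hist1h4b in 2.

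Promoters differ by histone type, and 4 of those whose genes are described below are given here. RefSeq promoter windows (build GRCm38.p6, 250 bases before to 50 after the start) were matched to 62 members. The windows were searched on both strands for CCAAT, for TATAAA, for AAACACA (an element known from H1 promoters) and for ATTTGCAT (the octamer known from H2B promoters). No searched motif contains another. CCAAT was present in all 6 H1, 18 H2A, 16 H2B and 10 H3 windows and in 3 of 12 H4 windows, against 41.1% of 27025 gene promoters. AAACACA was present in 5 of 6 H1 windows (8.2% of all genes), and the octamer in 7 of 18 H2A and 7 of 16 H2B windows (2.0% of all genes) and in no H1, H3 or H4 window. TATAAA was present in 4 of 6 H1, 11 of 18 H2A, 8 of 16 H2B, 4 of 10 H3 and 8 of 12 H4 windows (15.7% of all genes). A match describes these letters only. The windows are printed 5′ to 3′ on the gene's strand with each match in capitals.
Hist1h1e, chr13:23622509-23622808, minus strand: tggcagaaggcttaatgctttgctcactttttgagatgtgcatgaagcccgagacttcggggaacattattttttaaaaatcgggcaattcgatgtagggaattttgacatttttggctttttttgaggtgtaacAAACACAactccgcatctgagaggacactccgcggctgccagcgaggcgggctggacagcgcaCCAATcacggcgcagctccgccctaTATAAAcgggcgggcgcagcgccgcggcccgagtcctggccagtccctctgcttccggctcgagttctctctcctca
Hist1h2bj, chr13:22042948-22043247, plus strand: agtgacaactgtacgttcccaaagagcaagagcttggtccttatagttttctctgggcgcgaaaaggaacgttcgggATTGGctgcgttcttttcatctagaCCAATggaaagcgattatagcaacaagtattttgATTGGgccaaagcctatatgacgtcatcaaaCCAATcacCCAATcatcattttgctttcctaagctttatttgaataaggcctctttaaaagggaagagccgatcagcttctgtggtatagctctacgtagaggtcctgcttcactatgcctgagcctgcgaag
Hist1h4c, chr13:23698409-23698708, minus strand: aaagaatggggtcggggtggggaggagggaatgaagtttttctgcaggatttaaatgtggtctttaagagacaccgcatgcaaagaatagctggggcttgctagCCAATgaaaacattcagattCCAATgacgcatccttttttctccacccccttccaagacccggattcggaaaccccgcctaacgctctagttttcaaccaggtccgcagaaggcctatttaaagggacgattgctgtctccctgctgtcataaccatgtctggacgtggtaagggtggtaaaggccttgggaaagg
Hist1h4d, chr13:23581318-23581617, plus strand: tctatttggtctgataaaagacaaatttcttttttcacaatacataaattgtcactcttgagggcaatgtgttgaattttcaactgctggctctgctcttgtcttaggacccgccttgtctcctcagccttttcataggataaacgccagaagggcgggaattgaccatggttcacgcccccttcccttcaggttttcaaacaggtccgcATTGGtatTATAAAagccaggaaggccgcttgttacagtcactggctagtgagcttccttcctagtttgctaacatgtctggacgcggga
The Hist1h2bj window takes in all 248 bases between Hist1h2bj and Hist1h2ag, which are read in opposite directions, and runs on into Hist1h2bj. There were 12 such H2A and H2B pairs in the clusters, with 163 to 280 bases between the genes.

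Histone messages were abundant in these cells. Their summed share of a library ran from 0.873% to 2.00% of all TPM, or from 2.22% to 4.39% of protein-coding TPM. A mean of at least 100 TPM over the 18 libraries was reached by 43 members and at least 500 TPM by 8, while 8 averaged under 10 TPM. Hist1h2ap was listed at 0 in all 18 libraries beside its near copy Hist1h2ao. Of the 31-base words in the GENCODE transcript of Hist1h2ap, 93.4% also occur in that of Hist1h2ao. Words were counted in GENCODE transcripts, while the TPM are of RefSeq transcripts, so the shares are a guide only. Words shared with any other member made up over 50% in 38 of the 67 members. The level of 1 member among close copies is therefore uncertain and the sum over a type is firmer. Within the histone TPM, H2A held 30.5% to 34.3% in a library, H4 25.1% to 30.7%, H3 14.7% to 17.2%, H2B 12.7% to 15.9% and H1 8.29% to 12.4%.

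A few members carried each type. Hist1h1e (H1f4), the main H1 of many mouse tissues, held 47.0% to 55.9% of H1 TPM. Hist1h2ao (H2ac23) and Hist2h2aa1 (H2ac18) led H2A with means of 1009 and 960 TPM over the 18 libraries, Hist1h2bq (H2bc23) held 29.3% of H2B TPM and Hist2h3c2 (H3c15) led H3 with a mean of 433 TPM. Hist1h4d (H4c4) and Hist1h4h (H4c8) held 28.6% and 21.8% of H4 TPM. Genes known from germ cells were low. Hist1h1t (H1f6), the testis H1, had 0.408 to 2.40 TPM, Hist1h2ba (H2bc1), the testis H2B, had a mean of 6.36 and a highest value of 8.66 TPM, and its divergent partner Hist1h2aa (H2ac1) had 11.1 to 25.7 TPM.

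The first question was whether histone messages differ when PGR is missing. No member was called in any strain. A call required a Benjamini-Hochberg adjusted p no higher than 0.01 over all genes, from limma on log2 of TPM + 0.5, together with a log2 fold change of 1 or more in size. Genes with at least 1 TPM in 3 of the 6 libraries of a strain were tested, which kept 64 members in PRKO and 66 each in PRAKO and PRBKO. In the same fits 2.14% of all genes were called in PRKO, 2.05% in PRAKO and 0.133% in PRBKO. At an unadjusted p under 0.05 there were 6 of 64 members in PRKO (24.8% of all genes), 53 of 66 in PRAKO (49.5%) and 6 of 66 in PRBKO (31.1%).

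**Figure D1:**
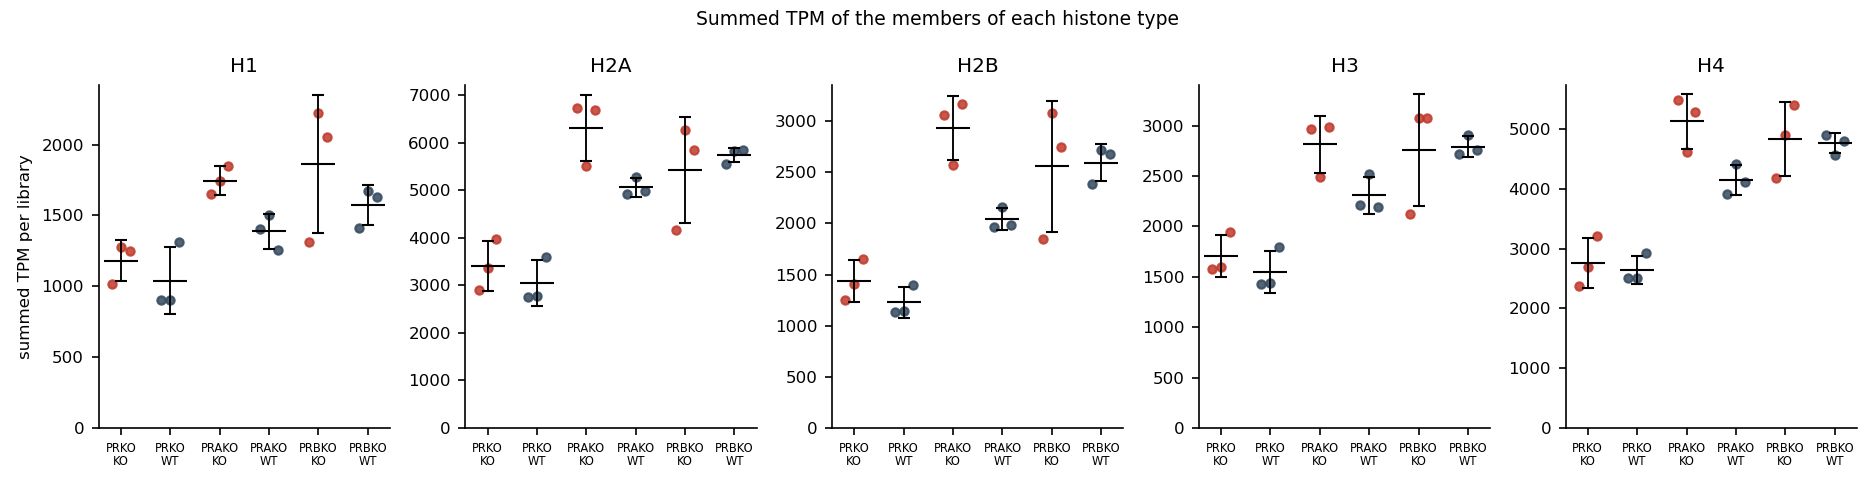
Summed TPM of the members of each histone type (one panel per type, linear axis from 0) in each library of the 6 groups, with group mean and SD as black bars and KO in red left of WT in dark blue. The PRAKO KO libraries lay above PRAKO WT for H1, H2A, H2B and H4, and both PRKO groups lay low.

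In PRKO, the sums of all types overlapped between KO and WT on the deposited scale. The 3 KO libraries had 9129 to 12034 histone TPM, against 8731 to 11030 in the 3 WT libraries. The H1 sum averaged 1180 ± 145 TPM in KO and 1039 ± 236 TPM in WT (SD, n = 3 in this and all other group means). The H4 sum averaged 2763 ± 422 TPM in KO and 2653 ± 234 TPM in WT. The median log2 fold change over the 64 members was 0.15, against -0.10 over all genes tested, and 56 members had a positive value. By type, the middle member of H1 had 0.19, that of H2A 0.16, of H2B 0.20, of H3 0.17 and of H4 0.05. With each of the 6 libraries left out in turn the median stayed between 0.05 and 0.25. Of 7 erythroid markers, 4 could be tested and all had positive values, with a median of 1.42. Their 7 genes summed to 185 to 322 TPM in PRKO KO and 55.9 to 136 TPM in PRKO WT. Their part in the histone values was not tested.

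In PRAKO, histone TPM was higher in KO than in WT. The KO libraries had 16930 to 19991 histone TPM, against 14418 to 15897 in WT, and the sums did not overlap. The H2B genes stood out among the types, with 2935 ± 316 TPM in KO and 2041 ± 110 TPM in WT, a ratio of 1.44. For the other types the ratio was 1.22 for H3, where KO and WT libraries overlapped, 1.24 for H4, 1.25 for H2A and 1.26 for H1. The median log2 fold change was 0.31 over the 66 members and 0.22 over all genes, and for the 18 H2B genes 0.48. At an adjusted p of at most 0.05 with no fold limit 33 of 66 members rose and none fell, where 30.0% of all genes rose and 4.51% fell. Those that rose were 12 of 18 H2B, 9 of 17 H2A, 5 of 13 H4, 4 of 6 H1 and 3 of 12 H3 genes. Positive values of any size were held by 62 of 66 members and by 82.5% of all genes tested in PRAKO. The granulosa markers summed to 3096 to 3459 TPM in PRAKO KO and 2208 to 2378 TPM in PRAKO WT, with positive values in 9 of 10 and a median of 0.55. The 6 endothelial markers summed to 17.5 to 21.6 TPM in PRAKO KO and 38.1 to 42.0 TPM in PRAKO WT. Their part in the histone values was not tested.

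The H2B genes that rose in PRAKO KO each did so by under 1 on the log2 scale. Hist1h2bf (H2bc7) had 102, 85.6 and 110 TPM in KO libraries, against 60.4, 70.5 and 54.4 TPM in WT libraries. The groups did not overlap, and the log2 fold change was 0.68 ± 0.122 (SE; limma adjusted p = 0.00693). Hist1h2be (H2bc6) had 113, 109 and 120.5 TPM in KO, against 82.5, 85.3 and 81.8 TPM in WT (log2 fold change 0.45 ± 0.063, limma adjusted p = 0.0024). Hist1h2bc (H2bc4) had 255, 249 and 276 TPM in KO, against 167, 191 and 183 TPM in WT (0.53 ± 0.075, limma adjusted p = 0.00256). The main H2B, Hist1h2bq, had 894, 665 and 878 TPM in KO, against 499, 549 and 504 TPM in WT, again without overlap. Its log2 fold change was 0.64 ± 0.119 (limma adjusted p = 0.00798). After rescaling to protein-coding genes Hist1h2be had 0.24 and Hist1h2bc 0.32 (limma adjusted p = 0.034 and 0.0388). Hist1h2bf then had 0.47 and Hist1h2bq 0.43 (limma adjusted p = 0.0618 and 0.0645).

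Among the other types in PRAKO, the main H4 and H1 genes moved by a similar size on the deposited scale. Hist1h4d had 1414, 1276 and 1402 TPM in KO, against 978, 1072 and 1024 TPM in WT (log2 fold change 0.41 ± 0.076, limma adjusted p = 0.0079). Hist1h1e had 801, 876 and 913 TPM in KO, against 679, 727 and 599 TPM in WT (0.37 ± 0.092, limma adjusted p = 0.0209). After rescaling to protein-coding genes Hist1h4d had 0.20 and Hist1h1e 0.16 (limma adjusted p = 0.178 and 0.395). The 6 H1 genes ranged from 0.20 for Hist1h1a (H1f1) to 0.55 for Hist1h1t. Hist2h2aa1, the second H2A gene by level, had 1164, 1081 and 1218 TPM in KO, against 1127, 1168 and 1052 TPM in WT, and these overlapped (0.05 ± 0.079).

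In PRBKO, the histone sums overlapped on the deposited scale. The KO libraries had 13633 to 19576 histone TPM, against 16992 to 17716 in WT. KO replicate 1 was low, with the lowest value of its group in 62 of 66 members. The median log2 fold change was -0.06 over the 66 members and 0.22 over all genes, and 47 members had a negative value. Without KO replicate 1 the members' median was 0.11 with 49 positive values, and relative to all genes it was -0.21 in place of -0.28. H2A and H4 had the lowest medians, -0.11 and -0.13. The 7 erythroid markers summed to 223 to 361 TPM in PRBKO KO and 75.8 to 208 TPM in PRBKO WT, and their part in these values was not tested. At an adjusted p of at most 0.05, Hist2h3c1 rose and Hist4h4 fell, where 3.27% of all genes rose and 0.209% fell.

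**Figure D2:**
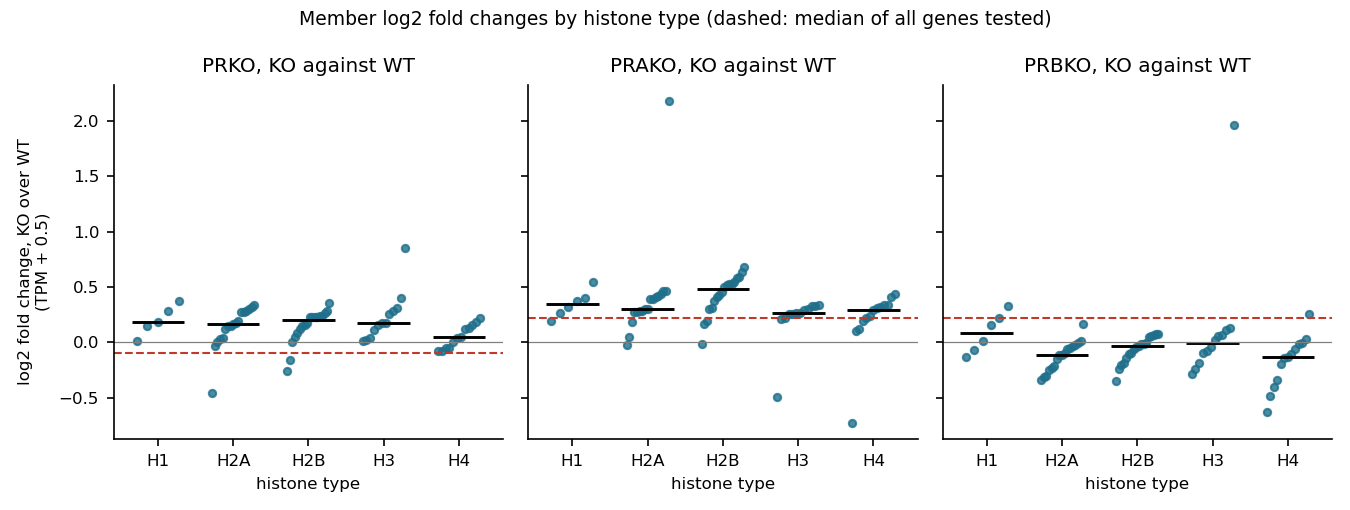
Log2 fold change of each tested member, KO over WT on log2 of TPM + 0.5, by histone type (x axis) in the 3 strains. Points are members, black bars type medians and the red dashed line the median of all genes tested (-0.10, 0.22 and 0.22). Most PRKO members lay above that line and most PRBKO members below it.

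The shifts differed between scales. A signal recognition particle RNA, Rn7s2, took 24.1% to 47.8% of TPM in a library, and protein-coding genes took 37.3% to 61.2%. Rn7s2 took 46.7% to 47.8% in PRKO KO and 42.8% to 45.6% in PRKO WT. Its share was 36.7% to 41.8% in PRAKO KO and 42.5% to 44.8% in PRAKO WT. For PRBKO it was 24.1% to 34.3% in KO and 34.6% to 39.5% in WT. The part of Rn7s2 in the histone shifts was not tested. As a share of protein-coding TPM, histone genes took 2.33%, 2.77% and 3.15% in PRKO KO libraries, against 2.22%, 2.22% and 2.48% in PRKO WT. They took 4.39%, 3.79% and 4.18% in PRAKO KO libraries, against 3.56%, 4.21% and 3.57% in PRAKO WT. They took 2.68% to 3.25% in PRBKO KO libraries, against 3.98%, 3.76% and 3.74% in PRBKO WT. Of the PRKO type sums, that of H2B did not overlap on this scale, with 3769 ± 565 rescaled TPM in KO and 2982 ± 148 in WT, a ratio of 1.26. Among the PRAKO type sums, H2B alone did not overlap either, with 6377 ± 540 rescaled TPM in KO and 5160 ± 503 in WT, a ratio of 1.24. For the sum of all members on this scale, the PRAKO groups overlapped. In that sum the PRBKO KO libraries all lay below PRBKO WT, with or without KO replicate 1.

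The same held for single members. With TPM as deposited, PRAKO KO libraries lay above PRAKO WT without overlap for 39 of 66 members (45.0% of all genes) and below for 1 (6.30%). PRKO KO libraries lay above PRKO WT for 4 of 64 members (6.37%) and below for 2 (25.6%). PRBKO KO libraries lay above PRBKO WT for 1 of 66 members (33.5%) and below for 5 (1.21%). With TPM rescaled to protein-coding genes, PRAKO KO lay above for 10 members (18.6% of all genes) and below for 2 (15.3%). PRKO KO then lay above for 21 members (13.5%) and below for 1 (14.4%). PRBKO KO lay above for 1 (7.36%) and below for 47 of 66 (25.9%). At an adjusted p of at most 0.05 on that scale, 3 members rose in PRKO (Hist1h3a, Hist1h3e and Hist1h3f; 2.90% of all genes rose) and none fell (5.01%). In PRAKO 3 rose (Hist1h2bc, Hist1h2be and Hist1h2bj; 5.92%) and 1 fell (Hist4h4; 7.03%), and in PRBKO 7 fell (1.33%) and none rose (0.433%).

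**Figure D3:**
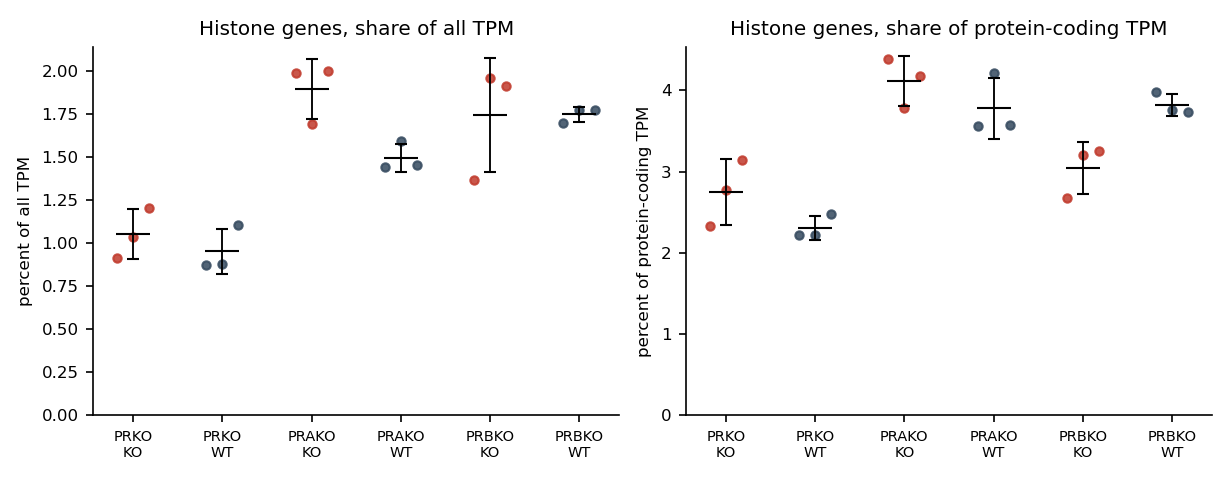
Share of the 67 histone genes in all TPM (left) and in the TPM of protein-coding genes (right), in percent from 0, for each library, with group mean and SD, KO in red left of WT in dark blue. On the left PRAKO KO lay above PRAKO WT, and on the right PRBKO KO (2.68% to 3.25%) lay below PRBKO WT (3.74% to 3.98%).

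The H1 genes moved least with the core histones in PRBKO. The H1 sum on the deposited scale was 1862 ± 485 TPM in KO and 1573 ± 140 TPM in WT, a ratio of 1.18, while the H2A sum was 5428 ± 1116 TPM in KO and 5745 ± 156 TPM in WT, a ratio of 0.945. After rescaling to protein-coding genes the ratio was 0.941 for H1 with overlapping libraries. It was 0.752 for H2A, 0.784 for H2B, 0.786 for H3 and 0.812 for H4, each without overlap. Hist1h1e had 688, 1155 and 1097 TPM in PRBKO KO, against 707, 788 and 797 TPM in PRBKO WT. Whether H1 and the core types differ was not tested.

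Hist4h4 (H4f16), the only gene of its cluster, differed from the other H4 genes in direction in PRAKO on the deposited scale, where the remaining 12 had positive values. After rescaling to protein-coding genes 9 of the 13 H4 genes were positive and 4 negative. In PRAKO it had 69.7, 39.1 and 69.8 TPM in KO libraries, against 77.7, 91.0 and 123 TPM in WT libraries. In PRBKO it had 41.1, 40.1 and 43.9 TPM in KO libraries, against 69.3, 65.3 and 59.9 TPM in WT libraries. In both strains every KO library was below every WT library. The log2 fold change was -0.73 ± 0.247 in PRAKO (limma adjusted p = 0.0531) and -0.63 ± 0.102 in PRBKO (limma adjusted p = 0.0194), short of the fold limit. In PRKO it had 94.0, 134 and 158 TPM in KO, against 106, 111 and 117 TPM in WT, and these overlapped (0.18 ± 0.182, limma adjusted p = 0.599). Its GENCODE transcript shares 0.1% of its 31-base words with any other member. That model is 2863 bases long, with 2445 bases beyond the stem-loop.

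Most of the remaining members stayed near their type, and the low members that did not are given below. In PRKO, H1 ran from 0.01 for Hist1h1a to 0.37 for Hist1h1d (H1f3), H2B from -0.26 for Hist1h2bj to 0.35 for Hist1h2bl, and H4 from -0.08 for Hist1h4a to 0.22 for Hist2h4. In PRAKO, Hist1h4k had the highest H4 value, 0.43, and Hist1h3a the highest H3 value, 0.34, while Hist1h2ba had -0.01. In PRBKO, H1 ran from -0.13 for Hist1h1a to 0.32 for Hist1h1e, H2A from -0.34 for Hist1h2ad to 0.16 for Hist3h2a, and H2B from -0.35 for Hist2h2bb to 0.08 for Hist1h2bq. Hist1h3h had -0.28 and Hist1h4d 0.25 there. In the Hist2 and Hist3 clusters, Hist2h2ab, Hist2h2ac, Hist2h2bb, Hist2h3b, Hist2h3c2, Hist2h4 and Hist3h2a averaged 27.9 to 433 TPM over the 18 libraries, and Hist2h2be and Hist3h2ba averaged 1.47 and 3.49 TPM.

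Low members gave the widest fold changes. Hist2h2aa2 (H2ac19) had 5.51, 4.51 and 3.36 TPM in PRAKO KO, against 2.58, 0 and 0.309 TPM in PRAKO WT, with a log2 fold change of 2.18 ± 0.586 (limma adjusted p = 0.0266). All of its 31-base words occur in Hist2h2aa1, and the sum of both copies was 1159 ± 68.5 TPM in PRAKO KO and 1116 ± 59.0 TPM in PRAKO WT. Hist2h3c1 (H3c14) had 4.52, 7.56 and 6.96 TPM in PRBKO KO, against 2.30, 0.841 and 0.871 TPM in PRBKO WT (1.96 ± 0.297, limma adjusted p = 0.0163). Summed with Hist2h3c2 it had 482 ± 102.5 TPM in PRBKO KO and 497 ± 8.77 TPM in PRBKO WT. In PRKO, Hist2h3c1 had 0.85, the highest H3 value, and in PRAKO -0.49, the lowest. The H3 medians there were 0.17 and 0.26, and KO and WT libraries overlapped for Hist2h3c1 in both strains. Each of these low members stands beside a far more abundant copy.

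Hist1h2aa, the germ cell H2A, was the only member past an adjusted p of 0.05 in PRKO with TPM as deposited. It had 11.1, 13.7 and 13.8 TPM in KO, against 18.1, 16.4 and 18.9 TPM in WT (log2 fold change -0.46 ± 0.106, limma adjusted p = 0.0396), where 7.85% of all genes fell and 2.11% rose at that limit. After rescaling to protein-coding genes it had -0.37 (limma adjusted p = 0.117). All 7 oocyte markers had negative values in PRKO as deposited, between -0.47 and -0.26, and their summed level was 188 to 227 TPM in KO and 240 to 315 TPM in WT. The part of oocyte RNA in the Hist1h2aa values was not tested. Whether fewer cells of a type or less RNA per cell lie behind a lower level cannot be told apart in bulk RNA.

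The other genes of histone supply were listed with earlier results of these data known. Of 21 genes for histone message transcription, processing and decay none was called in any strain, and their medians were -0.07 in PRKO, 0.22 in PRAKO and 0.26 in PRBKO, close to those of all genes. Slbp had 42.6 ± 3.88 TPM in PRKO KO and 46.5 ± 1.79 TPM in PRKO WT, 54.8 ± 4.00 TPM in PRAKO KO and 47.1 ± 5.53 TPM in PRAKO WT, and 62.6 ± 4.07 TPM in PRBKO KO and 51.2 ± 0.716 TPM in PRBKO WT. Its log2 fold changes were -0.13, 0.22 and 0.28, none with an adjusted p under 0.05. Npat and Casp8ap2 had values between 0.01 and 0.24. Cpsf3, the nuclease that cleaves histone messages, had -0.46 ± 0.064 in PRKO (limma adjusted p = 0.00542), short of the fold limit.

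Among 20 histone chaperones and import factors, Rbbp7 was the only one called. RBBP7 binds histone H4 within chromatin complexes. It had 96.0 ± 1.73 TPM in PRKO KO and 247 ± 34.4 TPM in PRKO WT (log2 fold change -1.35 ± 0.109, limma adjusted p = 0.000573), and 115 ± 6.38 TPM in PRAKO KO and 271 ± 7.35 TPM in PRAKO WT (-1.24 ± 0.065, limma adjusted p = 1.99e-05). In PRBKO it had 271 ± 32.3 TPM in KO and 288 ± 19.7 TPM in WT. None of 12 replication-independent variants was called. H3f3a and H3f3b, which encode H3.3, had 0.42 and 0.28 in PRAKO and 0.45 and 0.59 in PRBKO.

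None of 24 DNA replication genes and none of 12 mitosis genes was called in any strain. The replication genes had medians of -0.20 (PRKO), 0.23 (PRAKO) and 0.12 (PRBKO), and the mitosis genes -0.19, 0.25 and 0.14. Over all genes tested the medians were -0.10, 0.22 and 0.22. In PRAKO 23 of the 24 replication genes and all 12 mitosis genes had positive values, as did most of all genes tested there. Their PRAKO medians lay only 0.02 and 0.03 above that of all genes. The 1 negative value was that of Rrm2, a subunit of the enzyme that makes deoxynucleotides, with -0.85 ± 0.088 (limma adjusted p = 0.000588). Of 19 regulators of the entry into S phase only Cdk6, a cyclin D kinase, was called. It had 3.94 ± 0.431 TPM in PRKO KO and 21.4 ± 0.873 TPM in PRKO WT (-2.31 ± 0.093, limma adjusted p = 5.07e-05), and 5.51 ± 0.450 TPM in PRAKO KO and 21.3 ± 2.60 TPM in PRAKO WT (-1.86 ± 0.108, limma adjusted p = 3.14e-05). Cdkn1b, which encodes the inhibitor p27, had 0.85 ± 0.070 in PRAKO (limma adjusted p = 0.000188).

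The difference of the KO effect between strains was tested in one fit of all 18 libraries, and no member was called with TPM as deposited. All genes gave 0.510% called for PRKO minus PRAKO, 2.01% for PRAKO minus PRBKO and 3.75% for PRKO minus PRBKO. The median difference over 66 members was -0.20 for PRKO minus PRAKO (-0.30 over all genes), 0.43 for PRAKO minus PRBKO (near 0 over all genes) and 0.20 for PRKO minus PRBKO (-0.31 over all genes). At an adjusted p of at most 0.05, Hist1h4a had -0.40 for PRKO minus PRAKO (13.5% of all genes lower) and Hist2h2bb had 0.66 for PRAKO minus PRBKO (1.36% higher). For PRKO minus PRBKO, Hist2h2bb had 0.57 and Hist1h2ad (H2ac7) 0.68, with limma adjusted p = 0.0186 and 0.031 (0.739% of all genes higher). Hist1h2ad had 130, 143 and 173 TPM in PRKO KO, against 105, 113 and 133 TPM in PRKO WT, and 108, 172 and 165 TPM in PRBKO KO, against 170, 186 and 196 TPM in PRBKO WT.

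The widest differences among histone genes lay between strains and not between genotypes. The level of each member in PRKO libraries was compared with that in the other strains, separately for WT and for KO, in the fit of 18 libraries. This comparison was chosen after the values were seen. The tables are separate per strain, but every library was scaled by itself over the same 42251 transcripts. In PRKO WT against PRAKO WT, 15 of 66 members were lower and none higher, where 1.27% of all genes were lower and 2.24% higher. In PRKO WT against PRBKO WT, 16 were lower and none higher (1.99% and 1.61% of all genes). In PRAKO WT against PRBKO WT no member was called (0.114% of all genes lower, 0.0134% higher), with 17 of 66 at an unadjusted p under 0.05 (49.2% of all genes), and none with size factors. The KO libraries gave 16 lower and 1 higher, Hist4h4, for PRKO against PRAKO (2.62% and 1.48% of all genes). For PRKO KO against PRBKO KO there were 13 lower and 1 higher, again Hist4h4 (8.66% and 1.14%), and 11 lower and 3 higher with size factors or with TPM rescaled to protein-coding genes. For PRAKO KO against PRBKO KO only Hist1h2bp was called, with a log2 difference of 1.15 (0.141% of all genes higher, 3.10% lower).

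**Figure D4:**
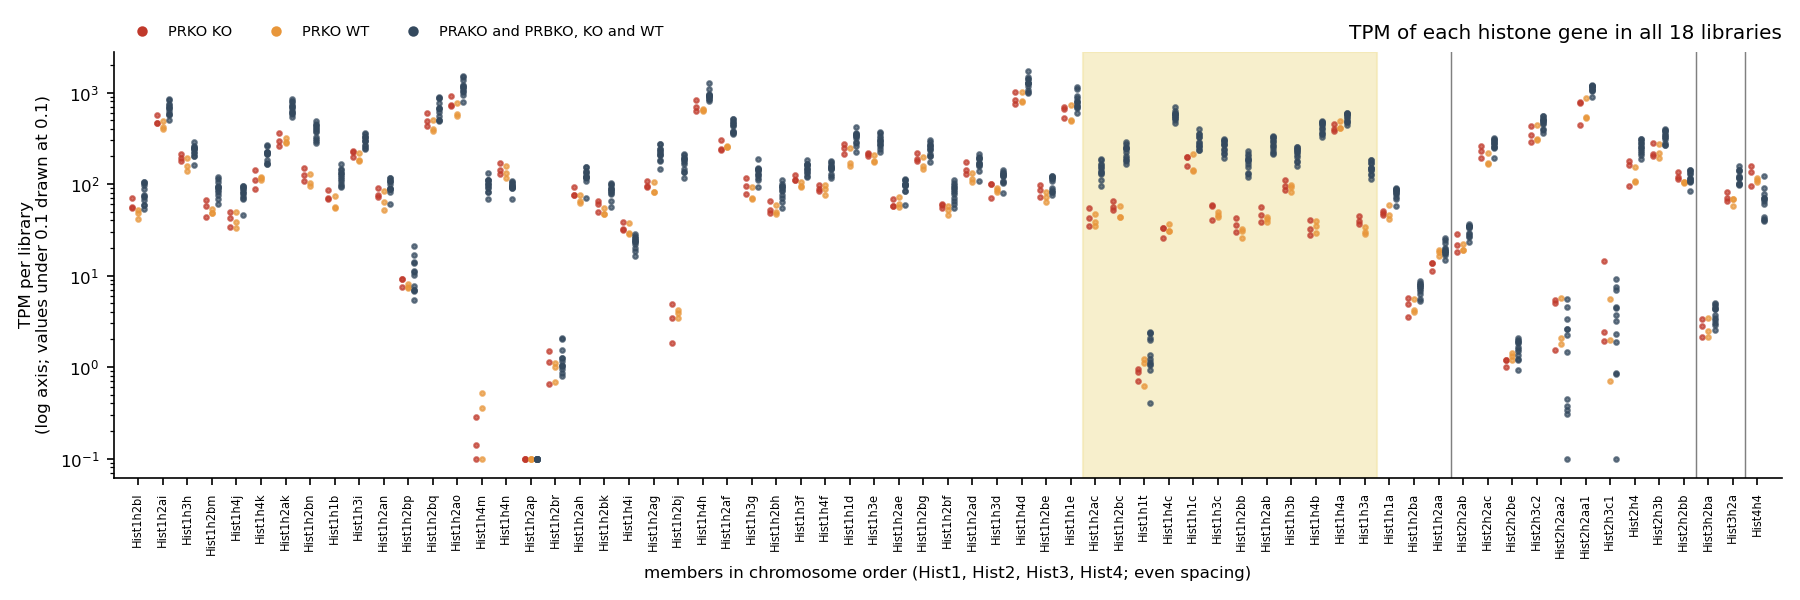
TPM of each of the 67 members in all 18 libraries on a log axis (values under 0.1 drawn at 0.1), in chromosome order with even spacing and grey lines between clusters. PRKO KO (red) and PRKO WT (orange) lay below the other 12 libraries (dark blue) for most members of the shaded stretch, Hist1h1t and Hist1h4a excepted, and for Hist1h2bj and Hist1h4m outside it.

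Of 13 members that were lower in all 4 comparisons, 9 lay within a stretch of Hist1 between 23683473 and 23762386 on chromosome 13 (78.9 kb). The stretch holds 12 members, of which Hist1h1t, Hist1h1c and Hist1h4a were not among the 13. Its ends, Hist1h2ac and Hist1h3a, are themselves among the 13 and were set after the values were seen. A low median within the stretch follows from that choice and is a description only. In it the median log2 difference was -1.96 for PRKO WT against PRAKO WT, against -0.40 over the other 54 members and 0.08 over all genes. Hist1h4c (H4c3) had 33.4, 25.6 and 33.2 TPM in PRKO KO and 30.4, 30.5 and 36.2 TPM in PRKO WT, against 463 to 688 TPM in the 12 libraries of the other strains. Hist1h4b (H4c2), also in the stretch, had 27.9 to 40.3 TPM in the 6 PRKO libraries, against 329 to 484 TPM in the other 12. Their log2 differences for PRKO WT against PRAKO WT were -3.92 ± 0.113 and -3.42 ± 0.162 (limma adjusted p = 2.1e-12 and 1.01e-09).

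Not every neighbour shared this. Hist1h4a (H4c1), which lies between Hist1h4b and Hist1h3a (H3c1), had 383 to 483 TPM in PRKO libraries, against 442 to 595 TPM in the others. Hist1h1c (H1f2), an H1 gene, had 140 to 212 TPM in PRKO libraries, against 234 to 395 TPM, and was not called, though the libraries did not overlap. Hist1h3a itself had 28.3 to 45.0 TPM in PRKO libraries, against 114 to 183 TPM in the others. The remaining called members there were Hist1h2ac, Hist1h2bc, Hist1h3c, Hist1h2bb, Hist1h2ab and Hist1h3b, with differences between -1.05 and -2.49 for PRKO WT against PRAKO WT.

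A ratio within a library does not depend on its scaling. Hist1h4c over Hist1h4a was 0.0648 to 0.0872 in PRKO KO and 0.0736 to 0.0750 in PRKO WT, against 0.990 to 1.17 in the other 12 libraries. Hist1h3a over Hist1h3f, another H3 gene of the cluster, was 0.338 to 0.357 in PRKO KO and 0.301 to 0.325 in PRKO WT, against 0.919 to 1.09 in the others. Both genotypes of the PRKO strain had low ratios.

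**Figure D5:**
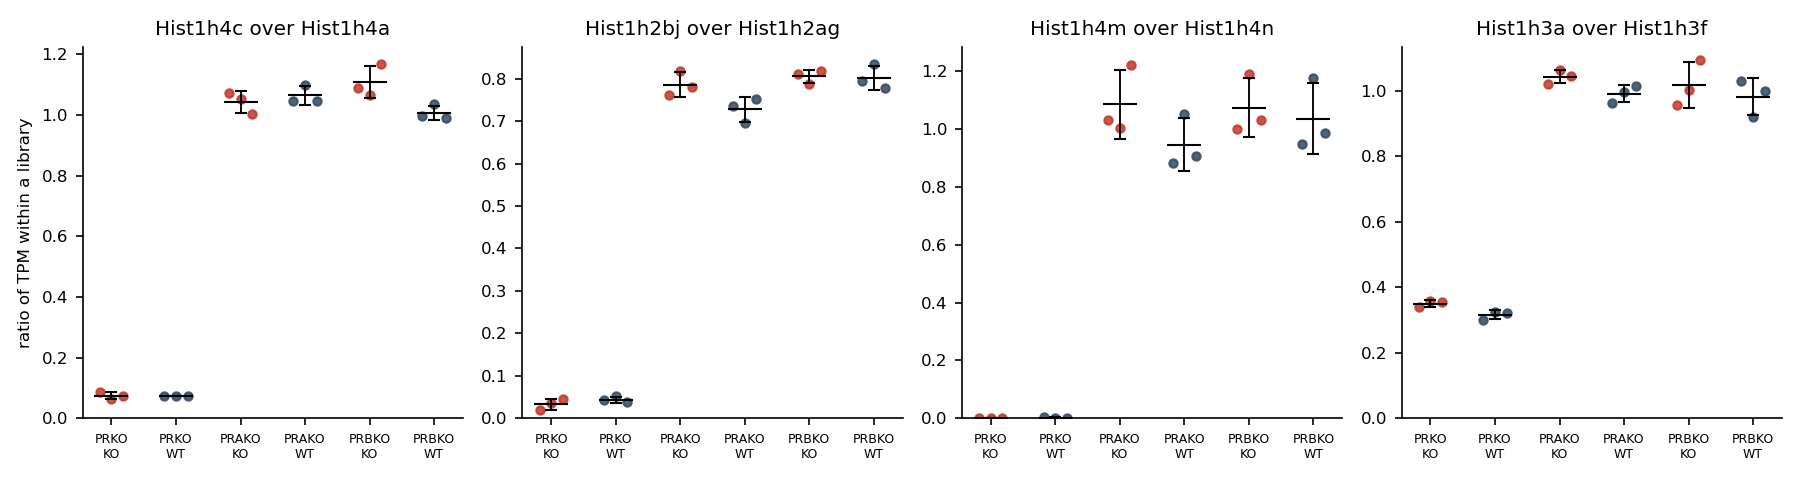
Ratio of the TPM of a member to that of another member of its type or pair in the same library (linear axes from 0), with group mean and SD, KO in red left of WT in dark blue. In each panel the 6 PRKO libraries lay below all 12 others, for Hist1h4m over Hist1h4n at or near 0.

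Divergent partners could differ as well. Hist1h2bj (H2bc11), whose promoter is printed above, had 1.81, 3.41 and 4.84 TPM in PRKO KO and 3.44, 4.23 and 3.91 TPM in PRKO WT, against 117 to 212 TPM in the other 12 libraries. Its partner Hist1h2ag (H2ac11), on the other side of the same 248 bases, had 80.9 to 107 TPM in PRKO libraries, against 144 to 272 TPM in the others. The ratio of the pair was 0.0196 to 0.0515 over the 6 PRKO libraries and 0.695 to 0.834 in the others. The log2 differences for PRKO WT against PRAKO WT were -4.99 ± 0.225 for Hist1h2bj and -1.10 ± 0.157 for Hist1h2ag (limma adjusted p = 5.57e-10 and 0.000117). In the pair of Hist1h2ak (H2ac15) and Hist1h2bn (H2bc15) both were lower, by log2 differences of -1.03 and -1.53.

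Hist1h4m (H4c17) was the most extreme member and has a near copy. It had 0, 0.284 and 0.142 TPM in PRKO KO and 0.517, 0.360 and 0 TPM in PRKO WT, against 68.6 to 133 TPM in the other 12 libraries. The copy Hist1h4n (H4c18), which shares 91.7% of the 31-base words of Hist1h4m, had 116 to 168 TPM in PRKO libraries, against 68.5 to 109 TPM in the others, and was the only member whose 6 PRKO values all lay above the other 12 (2.31% of all genes did so). Both copies summed to 147 ± 20.1 TPM in PRKO KO and 135 ± 19.9 TPM in PRKO WT. In the other strains the sum was 213 ± 30.4 TPM in PRAKO KO and 183 ± 16.8 TPM in PRAKO WT, and 178 ± 35.8 TPM in PRBKO KO and 198 ± 7.42 TPM in PRBKO WT. Over the 13 members lower in all comparisons, words shared with any other member made up 13.1% to 91.7%, and over 50% in 9. These words were counted in GENCODE transcripts, some with long ends, as in Hist1h2ac with 2010 bases after the stem-loop. The shares for the RefSeq transcripts behind the TPM were not counted.

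Over all members, the 6 PRKO libraries lay below the other 12 for 24 of 67, where 6.26% of all genes did so, and this included Hist2h4, Hist2h2aa1 and Hist3h2a outside Hist1. A pseudogene of the clusters, Hist1h2al, had 8.35 to 14.4 TPM in PRKO libraries, against 1.62 to 5.61 TPM in the others. Another, Hist3h2bb, had 0.732 to 1.94 TPM in PRKO libraries, against 2.69 to 6.60 TPM. Strain, colony, genetic background and library batch cannot be told apart in this design. The part of sequence variants and of reads shared between copies in these levels was not tested.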

How the data were processed

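Sample labels gave 6 groups (3 strains by genotype) of 3 libraries each, and further replicates were not analysed here. The authors deposited TPM by transcript, with 1 table for a strain. According to the methods and processing notes the authors ran FastQC, AdapterRemoval where needed and Salmon on the GENCODE M25 transcriptome of GRCm38.p6, while the tables list RefSeq transcripts. The notes also name limma and edgeR, and their versions are not stated there. Salmon shares reads between near-identical copies by estimation, so the split among histone copies is uncertain. TPM keeps no depth, so no count test, interval or floor was possible, and a rise of 1 abundant RNA lowers the TPM of the others.

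RefSeq annotation placed 42072 of 42251 transcripts; TPM was summed per gene. limma (version 3.58.1, R 4.3.3) was run on log2(TPM + 0.5) with a trended prior, per strain, over genes with at least 1 TPM in at least 3 libraries; the study's voom weights need counts. Calls were two-sided and used the limits given above (adjusted p 0.01, log2 fold change 1). Differences and levels between strains were contrasts over 18 libraries. Each library was its own pool of mice. The fits were tested on simulated data.

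Members and lists were chosen with earlier results of these data known. Named members were drawn from those called and the 3 most abundant and most extreme of each type. All of H1 and of Hist2 to Hist4 were added (by range where not singly). Per list, called genes and up to 4 of smallest p were drawn, except for the cell type markers. Of those markers, 1 granulosa gene was called lower in PRKO (2.14% of all genes were called). In PRAKO 1 granulosa gene was called higher, and 1 endothelial and 1 theca gene lower (2.05% of all genes were called). Members that differ between strains were named after their values were seen. Alternatives were pseudocounts of 1 and 0.1, no filter, a filter on a mean of 5 TPM, size factors, quantile normalization, rescaling to protein-coding genes, a constant prior, a looser threshold, a replicate block, 18 libraries in one fit and leaving out each library. Tables were handled with pandas 2.3.3 (Python 3.11.15), and plots drawn with matplotlib 3.10.9.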

Additional observations from a re-analysis of the deposited data

Results flagged for a closer look

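Of the genes listed beside the histone genes, 5 differed in their KO effect between strains by the contrast over all 18 libraries (limma, adjusted p of at most 0.01 and a log2 difference of at least 1). Rbbp7 differed by -1.25 for PRKO minus PRBKO and by -1.14 for PRAKO minus PRBKO. Cdk6 differed by -2.24 for PRKO minus PRBKO and by -1.79 for PRAKO minus PRBKO. Fshr, the receptor of follicle stimulating hormone, differed by -1.80 for PRKO minus PRBKO and by -1.04 for PRKO minus PRAKO, and Lhcgr, the luteinizing hormone receptor, by -1.32 for PRKO minus PRAKO. Cdh5, an endothelial cadherin, differed by -1.87 for PRAKO minus PRBKO and by -1.12 for PRKO minus PRBKO. With TPM as deposited, no histone gene was called in these contrasts.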

How the results depend on the processing

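Every value here rests on 3 libraries per group and on TPM, which carries no depth, so precision is known only from the spread between libraries. No member was called in any KO comparison with another pseudocount, filter or prior. At an adjusted p of at most 0.05 with no fold limit, 1 member passed in PRKO, 33 in PRAKO and 2 in PRBKO. For the differences of the KO effect, PRKO minus PRAKO gave 1, PRAKO minus PRBKO 1 and PRKO minus PRBKO 2. For levels it gave 39 (PRKO WT minus PRAKO WT), 56 (PRKO WT minus PRBKO WT), 6 (PRAKO WT minus PRBKO WT), 55 (PRKO KO minus PRAKO KO), 51 (PRKO KO minus PRBKO KO) and 4 (PRAKO KO minus PRBKO KO). The share of all genes past this limit is not given here for levels. These counts alone therefore show nothing particular to histone genes. PRKO minus PRBKO gave 1 call with size factors, 2 with quantile normalization and 1 after rescaling to protein-coding genes. Hist1h2ad was among the calls at each of these settings, for which the share of all genes called is not given here.

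The median over the members in PRKO was 0.26 with size factors, 0.27 with quantile normalization and 0.26 after rescaling to protein-coding genes. In PRAKO it was 0.0844 with size factors, 0.12 with quantile normalization and 0.10 after rescaling. In PRBKO it was -0.34 with quantile normalization and -0.37 after rescaling. The log2 ratios of the type sums after rescaling were, in PRKO, 0.30 for H1, 0.28 for H2A, 0.34 for H2B, 0.25 for H3, 0.17 for H4 and 0.25 for all. In PRAKO they were 0.11 for H1, 0.10 for H2A, 0.31 for H2B, 0.0679 for H3, 0.0876 for H4 and 0.12 for all. In PRBKO they were -0.0879 for H1, -0.41 for H2A, -0.35 for H2B, -0.35 for H3, -0.30 for H4 and -0.33 for all. After rescaling 54 of 66 members were positive in PRAKO, in place of 62, and 2 of 66 in PRBKO, in place of 19. Of the named members whose value exceeded 2 times its SE, the sign turned for Hist1h3h in PRAKO (-0.00845 with size factors), for Hist1h1a in PRAKO (-0.0339 with size factors, -0.0165 after rescaling) and for Hist2h2ac in PRAKO (-0.0472 with size factors, -0.0424 with quantile normalization, -0.0297 after rescaling). It also turned for Hist1h4d in PRBKO (-0.0824 with quantile normalization, -0.0615 after rescaling). The cause was not tested.

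Leaving out each library in turn gave 0 to 1 calls in PRAKO (Hist2h2aa2 without PRAKO WT replicate 1), 0 to 1 in PRBKO (Hist2h3c1, in 4 of the 6 omissions) and 0 to 1 for PRAKO KO minus PRBKO KO. The median ran from 0.28 to 0.41 in PRAKO and from -0.18 to 0.11 in PRBKO.

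Replicate numbers did not pair the samples: KO and WT libraries of the same number had correlations of their deviations between -0.150 and 0.148. With the replicate block, 0 members were called in PRKO, 2 in PRAKO and 1 in PRBKO, and 0 in the differences of the KO effect. Over all genes the block gave 258 calls in PRKO, 464 in PRAKO and 302 in PRBKO, in place of 297, 285 and 19. In PRAKO, KO replicate 4 and WT replicate 1 had no library of the same number in the other genotype. In PRBKO this held for KO replicate 3 and WT replicate 4. The block therefore left very little residual spread in these strains, and its added calls there are not reliable.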
